A study of Mus musculus with 6 samples.

Results

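A set of 10 genes of the centrosome and the mitotic spindle, most of them known for recessive primary microcephaly in humans, was followed in bulk mRNA of the mouse cerebellum at postnatal day 1 (P1). They are *Plk4*, *Stil*, *Cenpj*, *Cep152*, *Cep135*, *Aspm*, *Wdr62*, *Cdk5rap2*, *Mcph1* and *Cit*. The rule lists them by name and uses no measured value, and they make up 10 of the 54532 genes in the count table. They were, however, chosen with earlier results of these data known, so shares over all genes set beside them are descriptive only. The 6 libraries comprise 3 controls, littermates of the genotype Tox3f/f without Cre, and 3 mutants of the genotype Nestin-cre;Tox3f/f. Both groups carry the floxed *Tox3* alleles, and *Tox3* encodes a nuclear protein of the high mobility group box family. The Nestin-Cre transgene drives Cre recombinase in neural progenitors and thereby deletes the floxed gene in their descendants, so cells of other origin, such as those of meninges, vessels and blood, are expected to keep it. All 3 mutants and no control carried it, so an effect of the transgene itself and the loss of *Tox3* cannot be told apart. Whether each library came from 1 animal or from a pool is not given in the sources used here, so the spread between libraries may be in part technical.

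A centriole is duplicated once per cell cycle. The kinase Plk4 is brought to the mother centriole by Cep152, phosphorylates Stil and thereby starts a new centriole, whose wall is then extended by the tubulin-binding protein Cenpj (also called Cpap) on a cartwheel held by Cep135. Aspm and Wdr62 focus the poles of the spindle, Cdk5rap2 anchors microtubule-nucleating complexes in the pericentriolar material, Mcph1 restrains condensation of chromosomes outside mitosis, and the citron kinase encoded by *Cit* organises the midbody when the daughter cells separate. In the newborn cerebellum most divisions are those of granule neuron progenitors (GNPs) in the external granule layer, and human patients and mouse models with defects in these genes have small brains because neural progenitors divide abnormally or die.

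All 10 genes were lower in the mutant libraries, and 5 of them, *Aspm*, *Cenpj*, *Plk4*, *Stil* and *Mcph1*, were downregulated. Downregulated means a log2 fold change under −0.5 with an adjusted p under 0.01, which held for 3.63% of the 17505 genes tested. Lower values of any size were found in 50.9% of tested genes. Without regard to size, 6 of the 10 were lower at an adjusted p under 0.01, where 7.24% of all genes were, and 8 at an adjusted p under 0.05, where 12.9% were. None was upregulated in edgeR's test, where 3.03% of genes were, and none was higher at an unadjusted p under 0.05 with any tool. *Aspm* and *Cenpj* fell to 44.5% and 49.8% of the control mean, *Cdk5rap2* stayed at 96.8% of it, and the median log2 fold change of the 10 was −0.58 against −0.01 over all tested genes. In 9 of the 10 genes every mutant library lay below every control library in counts scaled to the library total (CPM). This was found for 20.1% of all tested genes. All mutants lay above all controls for no member, as they did for 20.4% of genes. The groups of *Cdk5rap2*, among the 9, overlapped in the deposited FPKM values, which also account for gene length. The medians of the 10 genes relative to their control means were −0.71, −0.46 and −0.62 in mutant 1, 2 and 3 on the log2 scale, and −0.04, 0.10 and −0.02 in control 1, 2 and 3. Because whole cerebella were measured, fewer dividing cells and less of these mRNAs per cell cannot be told apart.

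**Figure D1:**
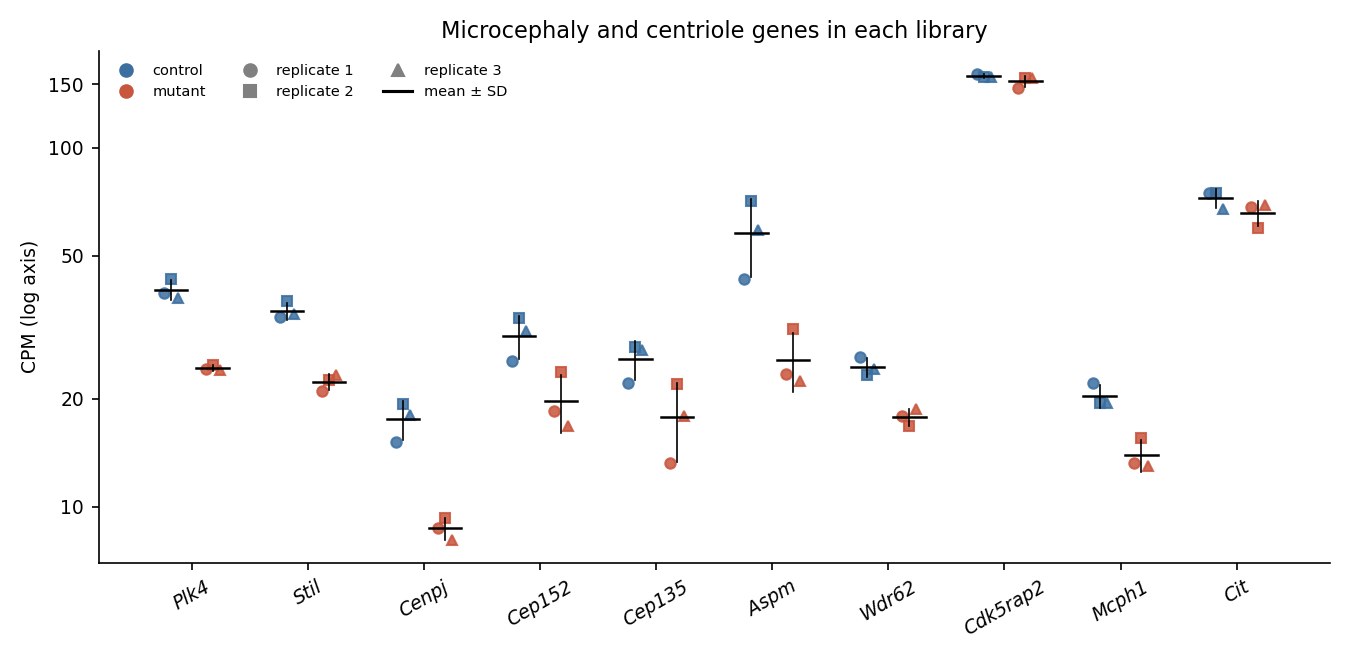
Level of each of the 10 genes in CPM (counts scaled to the library total, log axis) in the 3 control (blue) and 3 mutant (red) libraries, with marker shapes for the replicate numbers and black bars for mean ± SD. The groups are apart for *Plk4*, *Stil*, *Cenpj* and *Aspm*, nearly touch for *Cep135* and *Cdk5rap2*, and overlap for *Cit*.

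The libraries held between 15391854 and 17178478 counts, and each of the 10 genes had between 130 and 2547 counts in every library. Values are given in CPM, counts scaled to the normalized library total. Neither the labels nor the libraries could be checked with the targeted gene, because *Tox3* was counted over all its exons and was at 64.3, 63.0 and 64.4 CPM in the controls and 55.3, 63.2 and 59.2 CPM in the mutants. Control and mutant therefore mean the libraries so labelled. *Atoh1*, the GNP transcription factor, was at 31.8 ± 0.873 CPM in the controls and 0.362 ± 0.186 CPM in the mutants (SD, n = 3). Genes of the Y chromosome were counted well above background in control 1, mutant 1 and mutant 3 and were near 0 in the other 3 libraries, so both sexes are present in both groups. Within the libraries with Y-chromosome counts (1 control, 2 mutants), all 10 genes were lower in every mutant, with a median log2 difference of −0.57, and within the libraries without them (2 controls, 1 mutant) all 10 were again lower, with a median of −0.47. This split was added after the data had been seen and has too few libraries for a test. Its direction was fixed in advance for the 9 genes whose groups did not overlap in CPM over all 6 libraries.

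The genes of centriole duplication were examined first. *Plk4* (ENSMUSG00000025758, chromosome 3 of GRCm38, 40800019 to 40816883, plus strand), the kinase that sets the number of new centrioles, had 39.3, 43.0 and 38.1 CPM in the controls and 24.1, 24.8 and 24.0 CPM in the mutants. The mutants were close together and well below the lowest control. Its mean of 40.1 ± 2.56 CPM in the controls was reduced to 24.3 ± 0.437 CPM in the mutants (SD, n = 3). The log2 fold change was −0.72 (SE 0.08, adjusted p = 1.98e-04), with the smallest p of the 10 genes and rank 334 among all tested genes. *Stil* (ENSMUSG00000028718, chromosome 4, 115000159 to 115043196, plus strand), the substrate of Plk4 that recruits the cartwheel, had 33.7, 37.3 and 34.4 CPM in the controls and 20.99, 22.5 and 23.3 CPM in the mutants. Again the groups were far apart relative to their spread, and the log2 fold change was −0.66 (SE 0.08, adjusted p = 4.33e-04).

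*Cenpj* (ENSMUSG00000064128, chromosome 14, 56526761 to 56575425, minus strand), which controls the length of the new centriole, had 15.1, 19.3 and 18.04 CPM in the controls and 8.71, 9.32 and 8.10 CPM in the mutants. The lowest control was 5.78 CPM above the highest mutant. *Cenpj* had the largest fold change among the centriole duplication genes, −1.01 on the log2 scale (SE 0.12, adjusted p = 3.70e-04), with means of 17.5 ± 2.17 CPM in the controls and 8.71 ± 0.611 CPM in the mutants (SD, n = 3).

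The scaffold genes of the same pathway, *Cep152* and *Cep135*, had log2 fold changes of similar size to *Stil* but a wider spread between libraries, and neither was called. *Cep152* (ENSMUSG00000068394, chromosome 2, 125563088 to 125625113, minus strand) had 25.5, 33.5 and 30.9 CPM in the controls and 18.5, 23.8 and 16.8 CPM in the mutants. The groups did not overlap, but control 1 and mutant 2 approached each other to 1.67 CPM. The log2 fold change was −0.61 (SE 0.14) and the adjusted p of 0.0114 missed the threshold, which it passed with DESeq2. *Cep135* (ENSMUSG00000036403, chromosome 5, 76588698 to 76646466, plus strand) had 22.1, 27.8 and 27.3 CPM in the controls and 13.3, 22.0 and 17.9 CPM in the mutants. Here control 1 and mutant 2 were 0.106 CPM apart, and the mutants spread by 24.7% of their mean where counting alone gives 5.92%. The log2 fold change was −0.54 (SE 0.17, adjusted p = 0.0384), and −0.72 without mutant 2, when it passed both thresholds. Thus 3 of the 5 centriole duplication genes were downregulated.

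Of the spindle pole genes, *Aspm* (ENSMUSG00000033952, chromosome 1, 139454772 to 139494091, plus strand), the gene most often mutated in human primary microcephaly, showed the largest fall of the 10. It had 43.1, 71.2 and 58.9 CPM in the controls and 23.4, 31.2 and 22.4 CPM in the mutants. The highest mutant lay 11.9 CPM below the lowest control, although the controls spread by 24.4% of their mean where counting alone gives 3.35%. The mean of 57.7 ± 14.1 CPM in the controls was reduced to 25.7 ± 4.82 CPM in the mutants (SD, n = 3), and the log2 fold change was −1.17 (SE 0.18, 95% interval −1.57 to −0.77, adjusted p = 0.00131). *Wdr62* (ENSMUSG00000037020, chromosome 7, 30240138 to 30280419, minus strand), which acts with Aspm at the pole, had 26.1, 23.2 and 24.1 CPM in the controls and 17.9, 16.7 and 18.7 CPM in the mutants. The groups were clearly apart and the adjusted p was 0.00392, but the log2 fold change of −0.46 (SE 0.09) fell short of the threshold of 0.5. It passed with the Y-chromosome genes as a covariate, at −0.50, and with a trend in GC content removed, at −0.53.

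*Aspm*, *Cep152*, *Cep135* and *Cenpj* shared an order of libraries that the genotype does not give. Control 1 was the lowest control for each of them, and mutant 2 the highest mutant. *Aspm* in control 1 lay 0.59 below the mean of the other controls on the log2 scale and in mutant 2 lay 0.45 above the mean of the other mutants. For *Cep135* these values were −0.32 and 0.52, and for *Cep152* −0.34 and 0.43, whereas *Plk4* was at −0.05 in control 1. The proliferation marker *Mki67* had the same order, with 330, 496 and 410 CPM in the controls and 154, 221 and 144 CPM in the mutants. The mean log2 level of 97 S and G2/M phase genes, described below, did not share it. Relative to its control mean it was −0.01, 0.04 and −0.02 in the controls and −0.68, −0.63 and −0.68 in the mutants. *Rora*, a Purkinje cell marker, had the order, at 114, 175 and 161 against 156, 281 and 164 CPM. *Calb1*, another, did not, at 333, 319 and 292 CPM in the controls. Both were named after their values were seen. GC content moved with these libraries, since the 3499 tested genes lowest in GC content lay at a median of −0.06 in control 1 and 0.11 in mutant 2 against the other libraries of their group, and the 3499 highest in it at 0.05 and −0.05. The genes with this order, *Aspm*, *Cenpj*, *Cep135* and *Cep152*, had GC contents of 44.3%, 45.1%, 46.5% and 50.6%. *Plk4*, lowest among the genes followed here at 42.1%, lay at −0.05 in control 1 and 0.04 in mutant 2. *Stil*, at 44.8%, lay at −0.09 and 0.02. *Wdr62*, highest at 56.3%, lay at 0.14 and −0.13. Control 1 was also the only control, and mutant 2 the only mutant, to differ from its group in Y-chromosome counts. The part of either in the order of libraries was not tested. Within the libraries with Y-chromosome counts *Aspm* was 0.91 lower in the mutants on the log2 scale, and within those without them 1.06 lower. Its direction there was fixed in advance, because its groups did not overlap over all libraries, and the libraries are too few for a test. With the GC trend removed, a fit added after the data had been seen, the fold change of *Aspm* was −1.10 and the call held.

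To show the sequence next to these genes, the 120 bases up to the annotated transcription start are printed for the 4 downregulated members with the smallest p and, for contrast, for *Cdk5rap2*, the member with the smallest change. They are RefSeq sequences of GRCm38.p6, written 5′ to 3′ on the strand of the gene, with the letters CCAAT, or ATTGG where the motif lies on the opposite strand, in capitals.
Plk4 (chr3:40799831-40799950, plus strand): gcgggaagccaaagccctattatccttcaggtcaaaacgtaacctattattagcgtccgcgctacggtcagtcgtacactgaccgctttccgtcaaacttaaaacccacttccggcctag
Stil (chr4:114999998-115000117, plus strand): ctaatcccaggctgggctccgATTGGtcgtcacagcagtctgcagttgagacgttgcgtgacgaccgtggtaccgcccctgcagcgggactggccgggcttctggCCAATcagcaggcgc
Cenpj (chr14:56571847-56571966, minus strand): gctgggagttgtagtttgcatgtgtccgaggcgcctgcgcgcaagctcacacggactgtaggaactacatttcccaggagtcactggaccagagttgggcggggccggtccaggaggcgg
Aspm (chr1:139454653-139454772, plus strand): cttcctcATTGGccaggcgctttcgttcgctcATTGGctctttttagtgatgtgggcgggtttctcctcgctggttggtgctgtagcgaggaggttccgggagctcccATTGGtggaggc
Cdk5rap2 (chr4:70410436-70410555, minus strand): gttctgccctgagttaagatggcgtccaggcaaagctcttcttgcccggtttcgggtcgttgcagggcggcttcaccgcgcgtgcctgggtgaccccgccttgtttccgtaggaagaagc
CCAAT is the element bound by the factor NF-Y and is common in promoters of mitotic genes. The 3 copies shown for *Aspm* and the 2 shown for *Stil* are absent from the stretches of *Plk4*, *Cenpj* and *Cdk5rap2*. The printed stretch of *Cenpj* lies inside the gene interval of the count table, whose annotation starts further upstream.

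RefSeq promoters, 250 bases before to 50 bases after the start, were matched for 9 of the 10 genes, with *Mcph1* not matched. The 4 motifs were searched on both strands, and no match of 1 motif overlapped that of another in these promoters. CCAAT occurred in 5 of the 9 genes (*Aspm*, *Stil*, *Cep152*, *Cep135* and *Wdr62*), and in 37.4% of 32851 promoters. The cell cycle homology region, searched as TTTGAA or TTCGAA, occurred in *Aspm*, *Cep152* and *Cdk5rap2* and in 19.2% of all promoters. The E2F site, searched as TTTGGCGC, TTTCCCGC or TTTCGCGC, occurred in *Wdr62* and in 1.84% of promoters, and the E-box letters CAGCTG or CAGATG occurred in *Cenpj* and in 30.6%. Of the 4 downregulated genes with a promoter, *Plk4* held none of the 4 motifs. Such matches describe letters in these windows and not binding.

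The gene of the pericentriolar material differed from those above. *Cdk5rap2* (ENSMUSG00000039298, chromosome 4, 70216856 to 70410443, minus strand) had 160, 157 and 157 CPM in the controls and 147, 157 and 156 CPM in the mutants. The highest mutant was only 0.0737 CPM below the lowest control. In FPKM the groups overlapped, with the highest mutant at 11.953 and the lowest control at 11.945. The log2 fold change was −0.05 (SE 0.05, adjusted p = 0.506), with a 95% interval of −0.15 to 0.06 that leaves out the change of every downregulated member. A pseudogene, *Ywhaq-ps3*, lies in 365 exonic bases of *Cdk5rap2* on the same strand and was itself counted 105 to 147 times per library, little beside the 2405 to 2547 counts of *Cdk5rap2*.

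*Mcph1* (ENSMUSG00000039842, chromosome 8, 18595131 to 18803189, plus strand), whose loss lets chromosomes condense before mitosis, had 22.1, 19.5 and 19.5 CPM in the controls and 13.3, 15.6 and 13.0 CPM in the mutants. All mutants lay below all controls by at least 3.88 CPM. The log2 fold change of −0.55 (SE 0.11, adjusted p = 0.00439) passed both thresholds, but the call was lost in 9 of 19 alternatives, more often than any of the other 4. Among these were 5 of the 6 fits that leave out 1 library, with mutant 2 the exception. *Angpt2*, a gene of vessels on the opposite strand within the interval of *Mcph1*, shares no exonic base with it and had a log2 fold change of 0.37 (adjusted p = 0.0414).

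*Cit* (ENSMUSG00000029516, chromosome 5, 115845278 to 116008947, plus strand) was the only member whose groups overlapped in CPM. It had 74.7, 74.9 and 67.3 CPM in the controls and 68.2, 59.6 and 69.2 CPM in the mutants. Its log2 fold change was −0.14 (SE 0.07, adjusted p = 0.204) with a 95% interval of −0.30 to 0.03. *Cit* gives rise both to citron kinase in dividing cells and to a shorter form without the kinase in neurons, and the count per gene cannot separate them.

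**Figure D2:**
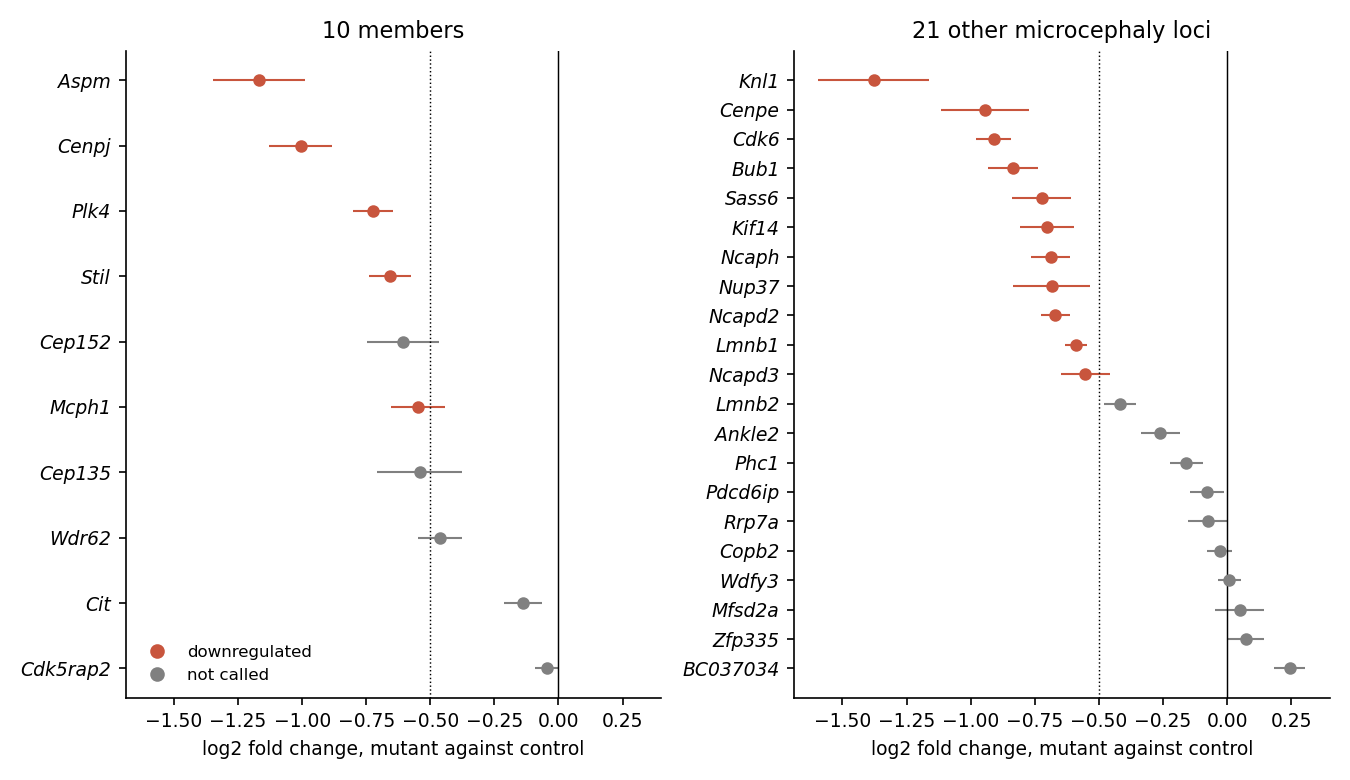
Log2 fold change of mutant against control with its standard error for the 10 genes (left) and 21 other microcephaly loci (right), each sorted by size, with called genes in red and the threshold of −0.5 as a dotted line. *Aspm* and *Knl1* lie furthest to the left in their panels, and *Cdk5rap2* lies at −0.05.

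Since most of these genes are transcribed in dividing cells, each was also set against genes of S and G2/M phase in the same library. These are 97 genes of the Seurat package, none of them among the 10, and their mean log2 level was 0.66 lower in the mutants. Relative to them the median of the 10 genes differed by only 0.08 on the log2 scale, and its sign was not stable, being −0.01 without control 1 and −0.02 without mutant 2. *Stil* was 0.01, *Cep152* 0.05, *Cep135* 0.10, *Mcph1* 0.12 and *Wdr62* 0.20 above its control mean, and in each of these 5 genes the groups overlapped. *Cdk5rap2* and *Cit* were 0.61 and 0.52 above it, with every mutant library above every control library, as was the case for 79.1% of all tested genes. Most genes lie above their control mean on this scale, because the reference itself is lower in the mutants.

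For *Cenpj* and *Plk4* every mutant library lay below every control library on this scale, which held for 1.33% of tested genes. For *Cenpj* the relative levels were −0.19, 0.12 and 0.08 in the controls and −0.32, −0.27 and −0.42 in the mutants, a difference of −0.34. For *Plk4* the difference was −0.06, with the lowest control at −0.048 just above the highest mutant at −0.052. *Aspm* differed by −0.49, the lowest value of the 10, but control 1 lay below mutant 2 and the groups overlapped. In two-sided exact permutation tests, *Cenpj*, *Plk4*, *Cit* and *Cdk5rap2* reached p = 0.1, the smallest that 3 libraries against 3 allow, and an adjusted p of 0.25 over the 10 genes. *Aspm* and *Wdr62* had an exact permutation p = 0.2. With the 43 S phase genes alone as the reference, the groups of *Plk4* overlapped (exact permutation p = 0.3). There every mutant library stayed below every control library for *Cenpj*, and above for *Cit* and *Cdk5rap2*. The share over all tested genes was not computed for this reference.

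**Figure D3:**
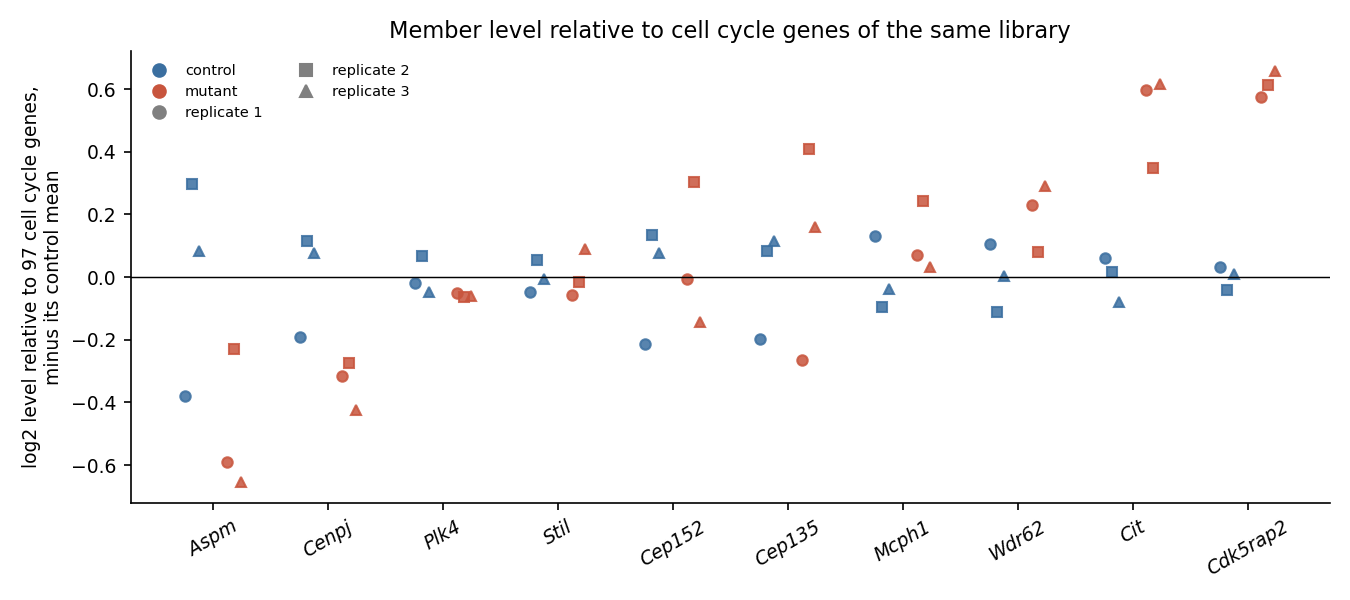
Log2 level of each gene relative to the mean of 97 S and G2/M phase genes in the same library, minus the control mean, for 3 control (blue) and 3 mutant (red) libraries, with marker shapes for the replicate numbers. *Cenpj* lies below its controls, *Stil* is level with them, and *Cit* and *Cdk5rap2* lie above.

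To compare levels between genes, the deposited FPKM values, which account for gene length, were used. In the controls *Cdk5rap2* was highest at 12.1 ± 0.136 FPKM and *Mcph1* lowest at 2.58 ± 0.190 FPKM (SD, n = 3), a 4.67-fold range. Between them came *Stil* with 6.004 ± 0.334, *Plk4* with 5.80 ± 0.373, *Cep152* with 5.14 ± 0.706, *Aspm* with 4.94 ± 1.21, *Cit* with 4.37 ± 0.262, *Wdr62* with 4.23 ± 0.250, *Cenpj* with 3.56 ± 0.443 and *Cep135* with 3.55 ± 0.434 FPKM. Only 3 of the 9 pairs of neighbours in this order did not overlap in their control libraries, *Cdk5rap2* with *Stil*, *Wdr62* with *Cenpj*, and *Cep135* with *Mcph1*. The mRNA levels of *Plk4* and *Stil* overlapped in the controls. In the mutants *Cit* moved from rank 6 to rank 2 with 3.98 ± 0.338 FPKM, while *Aspm* moved from rank 5 to rank 8 with 2.20 ± 0.401 FPKM. These ranks are of means, since in the mutants *Cit* at 3.59 to 4.21 FPKM overlapped *Stil* at 3.62 to 4.01, and *Aspm* at 1.93 to 2.66 FPKM overlapped *Cep135* at 1.84 to 3.03. Gene lengths in the table count all exons of all transcripts, so a gene with many unused exons has too low an FPKM.

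**Figure D4:**
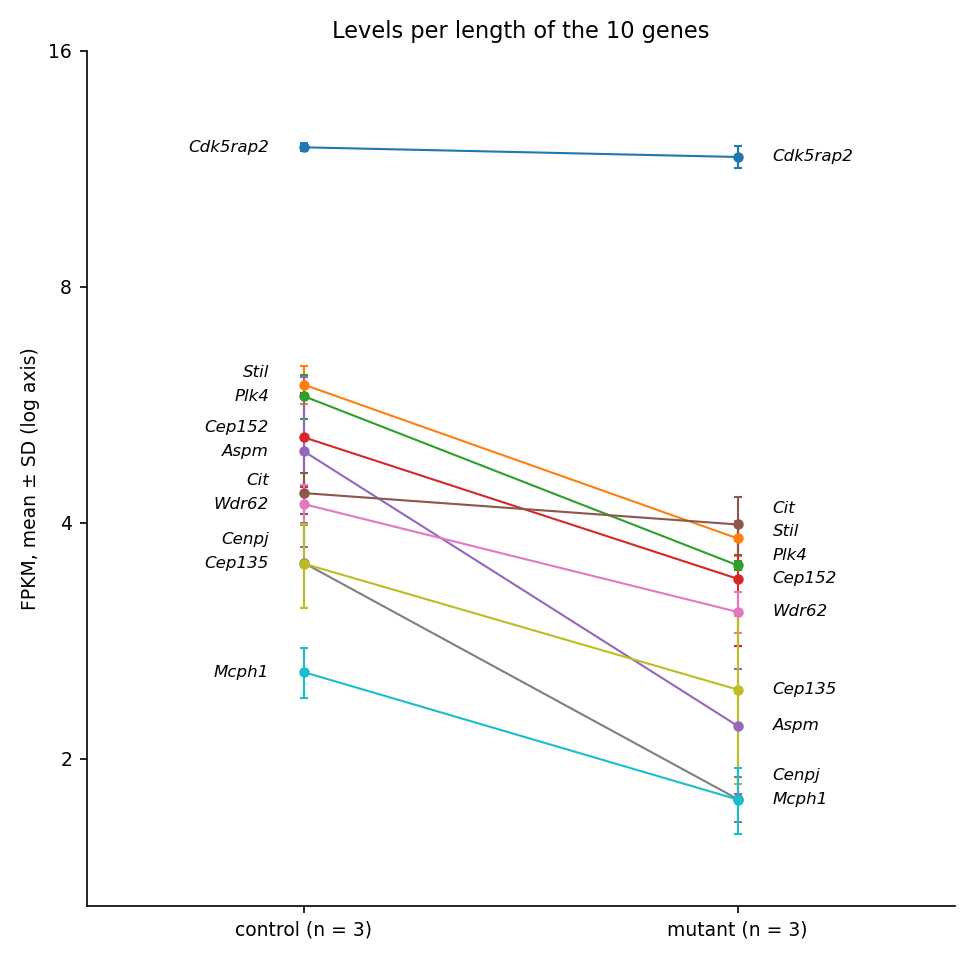
Mean FPKM (log axis) of the 10 genes in the 3 control and 3 mutant libraries, with SD as error bars and lines joining the same gene. *Cdk5rap2* stays near 12 FPKM, the mean of *Cit* crosses those of *Stil*, *Plk4*, *Cep152* and *Aspm*, and *Aspm* and *Cenpj* have the steepest lines.

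Other genes of the same processes were taken from 5 lists. Over all tested genes, 3.63% were downregulated, 3.03% upregulated and 50.9% lower at any size. Among 21 other loci of primary microcephaly, 11 were downregulated, 17 were lower and none was upregulated, with a median log2 fold change of −0.55. The smallest p-values were those of *Lmnb1*, a protein of the nuclear lamina (−0.59, adjusted p = 1.87e-05), *Cdk6*, a kinase of G1 phase (−0.91, adjusted p = 2.39e-05), and *Ncapd2*, a condensin subunit (−0.67, adjusted p = 4.84e-05). All 3 condensin genes of the list, *Ncapd2*, *Ncapd3* and *Ncaph*, were called. The kinetochore gene *Knl1*, named after its values were seen, had the largest fall of the list, −1.38 (SE 0.21), and the library order of *Aspm*, with 27.9, 47.4 and 38.8 CPM in the controls and 12.5, 19.4 and 12.1 CPM in the mutants. *Trappc14*, listed as *BC037034* and also named after its values were seen, was at 0.25 with an adjusted p of 0.0149 and was not called.

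Among 32 further centriole assembly factors, 5 were downregulated, 24 were lower and the median was −0.32. *Ccp110*, which caps the growing centriole, was at 96.1, 109 and 102 CPM in the controls and 54.3, 67.3 and 57.6 CPM in the mutants (log2 fold change −0.78, adjusted p = 1.82e-04). The others called were *Ccnf*, the cyclin F that directs Ccp110 to degradation (−0.93), *Sass6*, the cartwheel protein recruited by Stil (−0.72), *Kif24* (−0.60) and *Cep97* (−0.51), the partners of Ccp110 at the centriole end. *Deup1*, named after its values were seen and used by multiciliated cells to make many centrioles, had 5.60, 5.60 and 4.24 CPM in the controls and 8.31, 8.08 and 7.35 CPM in the mutants, a log2 fold change of 0.62 that was not called (adjusted p = 0.0174). The 8 markers of ependymal and multiciliated cells, which include *Deup1*, summed to 52.1 to 65.8 CPM in the controls and 96.3 to 110.3 CPM in the mutants, with 8 of 8 higher, 2 called and none at 0.

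Among 30 genes of the pericentriolar material and centriole appendages, 3 were downregulated, *Pcnt* (−0.52, adjusted p = 1.82e-04), *Cep72* (−0.53) and *Sclt1* (−0.55), and the median was −0.27. Pericentrin, the product of *Pcnt*, is the partner of Cdk5rap2 in the matrix, and had 74.4, 76.0 and 75.5 CPM in the controls and 54.1, 52.7 and 50.8 CPM in the mutants. *Cep89*, an appendage gene, was lower by −0.40 (adjusted p = 0.00355) and short of the fold threshold.

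Among 30 spindle pole and cytokinesis partners, 16 were downregulated, and the median log2 fold change was −0.57 with 28 of them lower. *Kif23* (−0.89), *Ect2* (−0.94) and *Racgap1* (−0.50), which together build the central spindle and position the cleavage furrow, had the smallest p-values, while *Cit* in the same process was not called. Of 5 genes of the pathway that stops cells after centrosome loss or a long mitosis, 5 were lower and 1 was downregulated, *Trp53* (−0.59, adjusted p = 7.66e-04). Its target *Cdkn1a* was at −0.32 (adjusted p = 0.00601) and *Usp28* at −0.16 (adjusted p = 0.119). *Kif14* and *Sass6* are on 2 of the lists, and 14 genes of the lists are also among the 97 cell cycle genes, of which 30 of 43 S phase and 43 of 54 G2/M phase genes were downregulated. None of the 116 genes on the 5 lists was upregulated with edgeR or with DESeq2, and 3 were higher at an unadjusted p under 0.05 in edgeR's test. With edgeR 3.03% of all tested genes were upregulated.

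**Figure D5:**
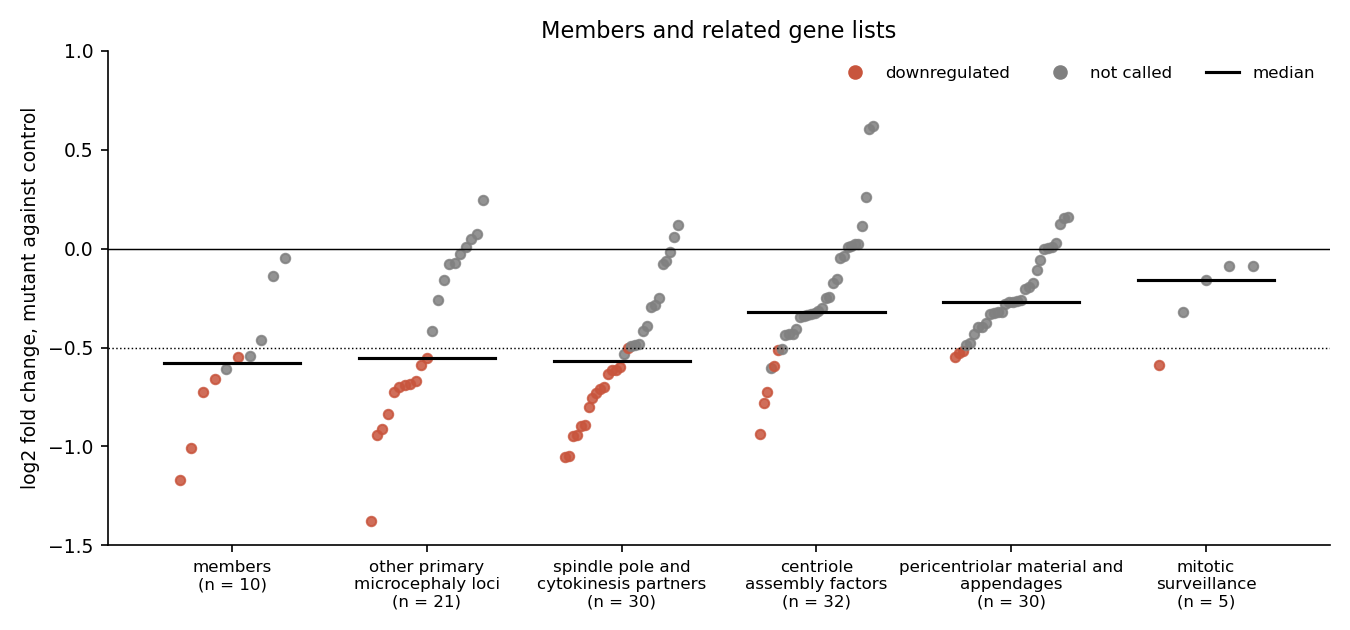
Log2 fold change of mutant against control for the 10 genes and the 5 related lists, sorted within each list, with called genes in red, black lines for the medians and a dotted line at −0.5. The medians of the 10 genes, the other microcephaly loci and the spindle and cytokinesis partners lie between −0.58 and −0.55, those of the other lists between −0.32 and −0.16.

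Markers of cell types moved in the same libraries, and their part in the values above was not tested. All 8 GNP markers were downregulated, and their sum was 1279 to 1398 CPM in the controls and 490 to 544 CPM in the mutants. Of 8 granule neuron markers 6 were downregulated. Purkinje cell markers, a cell type that no longer divides, were 5 of 8 upregulated, with sums of 1555 to 1681 and 2159 to 2646 CPM. Of 8 markers each, 3 of astroglia, 5 of the oligodendrocyte lineage, 3 of meninges and 1 of microglia were upregulated. None of these markers was downregulated, although 1 of astroglia, 1 of the oligodendrocyte lineage and 2 of meninges were lower. The lower marker of the oligodendrocyte lineage was *Pdgfra*, named after its values were seen. It had 185, 207 and 192 CPM in the controls and 139, 142 and 145 CPM in the mutants. Endothelium had no call with edgeR or DESeq2 and 2 of 8 markers at an unadjusted p under 0.05 in edgeR's test. The sum of the choroid plexus markers ranged from 134 to 202 CPM in the controls and from 37.6 to 784 CPM in the mutants. Of the 8, 7 were higher, with a list median of 0.81, and 1 was downregulated. That gene was *Otx2*, with 55.5, 49.0 and 54.2 CPM in the controls and 24.7, 22.0 and 24.0 CPM in the mutants. *Ttr*, named after its values were seen, had 131, 101 and 67.7 CPM in the controls and 181, 6.06 and 711 CPM in the mutants. *Clic6*, named likewise, had 4.62, 3.84 and 2.57 CPM in the controls and 6.58, 2.09 and 21.1 CPM in the mutants. Both, like *Folr1*, *Kcne2* and *Aqp1*, were highest in mutant 3 and below every control in mutant 2. *Otx2*, *Prlr* and *F5* did not have this order. Of 7 erythrocyte markers 5 were tested with edgeR, with no call, none with DESeq2 and none at an unadjusted p under 0.05. No marker of any list was at 0 in all libraries.

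The genes whose levels over the 6 libraries were most like the median profile of the 10 were found among 16252 genes by the root mean square difference of log2 levels. They were *Senp1*, with a difference of 0.0269 and a log2 fold change of −0.61, *Skp2* with 0.0322 and −0.58, *Nfib* with 0.0383 and −0.59, *B3galt2* with 0.0384 and −0.61, and *Nfatc3* with 0.0453 and −0.56. *Senp1* encodes a protease that removes the modifier SUMO, *Skp2* a subunit of a ubiquitin ligase, and *Nfib* and *Nfatc3* transcription factors.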

How the data were processed

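Counts per gene and FPKM values of 6 cerebella libraries at P1, 3 control and 3 mutant, were used, with groups and numbers taken from the labels. For the deposited counts, the submitters' processing notes name the mm10 build, HISAT2 2.0.5 and featureCounts 1.5.0-p3, after poly-T selection of mRNA. The authors did not normalize these counts. The deposited FPKM values scale these counts by gene length and library size. The strand setting is not given in the sources used here. Gene starts, ends and lengths of all 10 genes equal those of GENCODE M21. Columns of the authors' own comparison were not used.

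The quasi-likelihood test of edgeR 4.0.16 under R 4.3.3 was run on the counts, mutant minus control and without covariates, after filterByExpr and TMM. Benjamini-Hochberg adjustment covered the 17505 tested genes, which held 99.8% of the counts. Calls required a log2 fold change beyond 0.5 with an adjusted p under 0.01. The common dispersion was 0.0105. No library copied another, as the chi-square per gene within a group was 3.66 to 10.2. At this depth 3 counts were at most 0.196 CPM. Counting spreads cover counting error only.

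Named were all 10 genes, the 3 smallest p-values of each list with any opposite calls, the 5 genes most like the median profile, and *Tox3*, *Atoh1* and *Mki67*. Genes named otherwise are marked or are further calls of a list. The 10 genes and all lists were chosen with earlier results of these data known. Alternatives were DESeq2 1.42.0, its size factors, library size alone, other filters, a replicate block, a Y-chromosome covariate, limma 3.58.1 on log2(FPKM + 1) and log2(FPKM + 0.1), other thresholds and each library left out. In simulated counts with 200 genes changed 2-fold, edgeR recovered 181 with 2 false calls among 17298 genes. Every simulated gene had the common dispersion, so smaller changes and genes with a wider spread were not covered.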

Additional observations from a re-analysis of the deposited data

How the results depend on the processing

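All 10 genes kept their direction in 19 alternatives, and none was upregulated. The number downregulated is given with the share of all genes tested in that fit. It was 5 in the reported fit (3.63%) and 4 to 7 with 1 library left out (2.74% to 4.32%). It was 7 with DESeq2 (1.93%) or a GC trend removed (3.72%), and 2 with limma on log2(FPKM + 1) without a filter (0.886%). At an adjusted p under 0.05 with no fold threshold it was 8 (12.9%). It was 0 with glmTreat, edgeR's test against a log2 fold change of 0.5 (0.828%), where 4 had an unadjusted p under 0.05. *Plk4* and *Stil* lost their calls only with glmTreat, *Aspm* and *Cenpj* with glmTreat and the unfiltered limma fit, and *Mcph1* in 9 of 19. *Cep152* was called in 8 and *Cep135* in 5. The median of the 10 was −0.45 with limma on log2(FPKM + 1), filtered or not, and −0.69 to −0.53 with 1 library left out, the lowest without mutant 2. Relative to the cell cycle genes the median of 0.08 turned to −0.0084 without control 1, −0.019 without mutant 2 and −0.036 without both, the last added after the data were seen, and was at most 0.11 with 1 library left out. The causes were not tested.

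With the replicate number as a block, 7 of the 10 genes, and 696 and 561 of all genes, were down- and upregulated. The labels do not say whether same-numbered libraries are paired, and their deviations cannot decide it. These correlated at 0.24, 0.26 and −0.17, and 3 of 6 libraries correlated best with their own number. Control 3 and mutant 3 differ in Y-chromosome counts, while the same-numbered libraries of replicates 1 and 2 do not.

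All genes downregulated, 635 as reported, were 286 with limma on log2(FPKM + 1) without a filter, 2252 with no fold threshold, 145 with glmTreat and 492 to 778 with 1 library left out. Those upregulated, 530 as reported, were 330 and 176 with limma on log2(FPKM + 1) with and without the filter, 2136 with no fold threshold, 30 with glmTreat and 349 to 569 with 1 library left out, the lowest without mutant 3. The share of all genes downregulated was 2.52% with filtered limma on log2(FPKM + 1) and 2.94% on log2(FPKM + 0.1). It was 0.886% without the filter, 12.9% with no fold threshold, 0.828% with glmTreat and 2.74% to 4.32% with 1 library left out. Other microcephaly loci downregulated, 11 as reported, were 6 and 5 with limma on log2(FPKM + 1) with and without the filter, 6 on log2(FPKM + 0.1), 1 with glmTreat and 8 to 10 with 1 library left out. Centriole assembly factors, 5 as reported, were 2 in each limma fit, 14 with no fold threshold, 0 with glmTreat (3 at an unadjusted p under 0.05) and 3 to 8 with 1 library left out, the highest without mutant 2 and 3 without control 2, control 3, mutant 1 or mutant 3. Pericentriolar and appendage genes, 3 as reported, were 0 with limma on log2(FPKM + 1) (14 at an unadjusted p under 0.05), 1 on log2(FPKM + 0.1), 12 with no fold threshold, 0 with glmTreat (0 at an unadjusted p under 0.05), and 1 to 6 with 1 library left out, the highest without mutant 2 and 1 without mutant 1 or mutant 3. Spindle and cytokinesis partners, 16 as reported, were 9 with the unfiltered limma fit, 4 with glmTreat and 12 to 15 with 1 library left out. Mitotic surveillance genes were 1 as reported and with any library left out, 2 with no fold threshold and 0 with glmTreat (0 at an unadjusted p under 0.05).

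Counting error was at most 8.41% of a member's group level. It was below the spread between libraries for *Aspm*, *Cep152*, *Cep135*, *Mcph1* and *Cit* in both groups. In the mutants it was above the spread for *Cenpj* (8.41% against 7.02%), *Plk4* (5.03% against 1.80%), *Wdr62* (5.88% against 5.47%) and *Stil* (5.26% against 5.24%). For *Cdk5rap2* it was above the spread in the controls (2.02% against 1.18%).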
